A study of Rattus norvegicus with 9 samples.

Results

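Gene-desert Egr1 regions are the differential Egr1 binding regions that the authors listed on chromosomes 1 to 20, annotated as upstream or downstream of their nearest gene, and placed more than 100 kb from it. Within the authors' lists, whose regions had all been called for a difference in Egr1 signal, they were chosen by position only. Of the 5690 regions listed in the 3 pairwise comparisons of the study, 1479 met the rule. Proestrus versus males contributed 832 of its 3225 regions, proestrus versus diestrus 505 of 1774, and diestrus versus males 142 of 691. Because the comparisons share libraries, each was described on its own.

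The study asked how Egr1 binding in the medial prefrontal cortex differs with sex and with the stage of the estrous cycle. Chromatin was prepared from 8-week-old Sprague-Dawley rats, sheared to fragments of 200 to 500 bp, precipitated with 4 μg of an Egr1 antibody, and sequenced. Females, staged by vaginal smears, were taken in the early afternoon of proestrus or early on the first day of diestrus, and males were collected with them. The labels name no treatment and no genetic change in any group, and after removal of outlier libraries by the authors the groups held 3 animals for males, 2 for proestrus, and 4 for diestrus. The tissue was used in bulk, so that fewer cells with Egr1 bound at a site and less Egr1 bound per cell cannot be told apart. The proestrus group is the smallest, with a pair of animals only.

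Egr1 is a zinc finger transcription factor encoded by an immediate early gene, which neurons induce within minutes of activity and which binds GC-rich sites in promoters and enhancers. Gene deserts are long stretches of the genome without annotated genes. Some hold enhancers that contact the promoters of developmental or neuronal genes over long distances, so the nearest gene of a distal site is not always the gene that it regulates. Proestrus is the stage of the cycle with high estradiol, and diestrus is a stage with low estradiol.

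In each deposited table, a region carries the normalized reads of every library as an unnamed list, the mean of each group, and the enrichment of each group over a background. Libraries are therefore known by group and place in the list but not by animal, and the sequencing pool of each could not be followed. When the 31606 library values were divided by what a single read is worth in their library, 31604 came within 0.1 of a whole number, and reads were recovered in this way. Per library, the gene-desert regions held between 938 and 7583 reads in proestrus versus males, between 285 and 4527 against diestrus, and between 378 and 855 for diestrus versus males. Such sums depend on which regions were called and do not measure depth. The worth of a read depends on the authors' normalization, which is not described, and was not compared with depth. When proestrus and males were compared, it was 1.65 and 0.811 normalized reads in the proestrus libraries. In the male libraries it was 1.39, 0.917, and 0.634. The median gene-desert region rested on 17, 17, and 25 reads over all libraries in the 3 comparisons, in the order given above. A single read therefore moved the value of a library visibly.

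Every listed region had been called by the authors as different between the groups. Direction and size are thus selected values, and no test was made on them. Uncalled regions are not analysed here. Shares are given with Wilson 95% intervals, which cover counting error only and treat neighboring regions as separate. The nearest gene is the one that the authors' annotation gives, and some regions could lie within another gene. In the 3 comparisons, 21, 21, and 6 gene-desert regions overlapped the body of one of the 3546 genes named in the tables. Such regions are not gene-desert regions in the strict sense. Only genes nearest to some listed region are named, so that further gene-desert regions could lie within unnamed genes. Positions are those of the Rnor_5.0 genome.

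In proestrus versus males, nearly all gene-desert regions carried more Egr1 signal in proestrus. A total of 800 of 832, or 96.2% (95% interval, 94.6 to 97.3), had the higher mean in proestrus, whereas 90.3% of all listed regions on chromosomes 1 to 20 did. In all 832, every library of the higher group lay above every library of the other, as was true for 100% of all listed regions on these chromosomes, so that the separation itself says nothing about gene deserts. The regions higher in proestrus had a median of 6.96 normalized reads in proestrus and 0.98 in males. The median log2 ratio of these regions was 2.91, compared to 2.89 over all listed regions that were higher in proestrus. Their log2 ratios started at 1.66, and 33 had no read in any male. With these 33 set at the bound that 3 male reads give, the medians were 2.83 for gene-desert and 2.83 for all such regions. The median enrichment over background was 2.56 in proestrus and 0.40 in males.

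The 3 gene-desert regions with most reads among those higher in proestrus lay on chromosomes 2, 5, and 1. At chr2:221548401-221549300, 114.8 kb upstream of the nearest gene, the proestrus libraries held 14.8 and 14.6 normalized reads and the males 1.39, 3.67, and 3.80. The means were 14.7 ± 0.170 (SD, n = 2) and 2.95 ± 1.36 (SD, n = 3), with a log2 ratio of 2.32. Both proestrus values were far above the highest male value. At chr5:31452351-31453400, the proestrus libraries held 23.1 and 12.2, and the males 1.39, 2.75, and 1.27 (log2 ratio, 3.29). The proestrus libraries were about as far from each other there as the lower of them was from the males. A further region, at chr1:121522401-121522950 and 782.2 kb from its nearest gene, held 16.5 and 11.4 in proestrus and 4.17, 5.50, and 0.63 in males (log2 ratio, 2.02). With each library left out in turn, its log2 ratio was between 1.53 and 2.54.

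Only 32 gene-desert regions were lower in proestrus than in males, and 25 of these had no read in either proestrus library. The log2 ratio of such a region has no finite value, and folds were bounded by taking 3 reads over the whole proestrus group. The region with most reads, chr14:95355301-95356700, held 23.6, 18.3, and 32.3 normalized reads in males and none in proestrus, and was at least 13.4-fold lower. Its neighbor at chr14:95354101-95354900 held 11.1, 18.3, and 13.3 in males and none in proestrus, and was at least 7.73-fold lower. The male enrichments were only 1.20 and 1.18, below the median of 1.99 in males over the gene-desert regions lower in proestrus. The deposited proestrus enrichment has no finite value at either position, which means that the background was at 0 as well, so that less Egr1 and no mappable sequence in females cannot be told apart. Apart from this pair, the region with most reads was chr6:130813751-130814400. The males held 16.7, 11.9, and 13.3 normalized reads there and the proestrus libraries 3.30 and 0.81 (log2 ratio, -2.77).

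**Figure D1:**
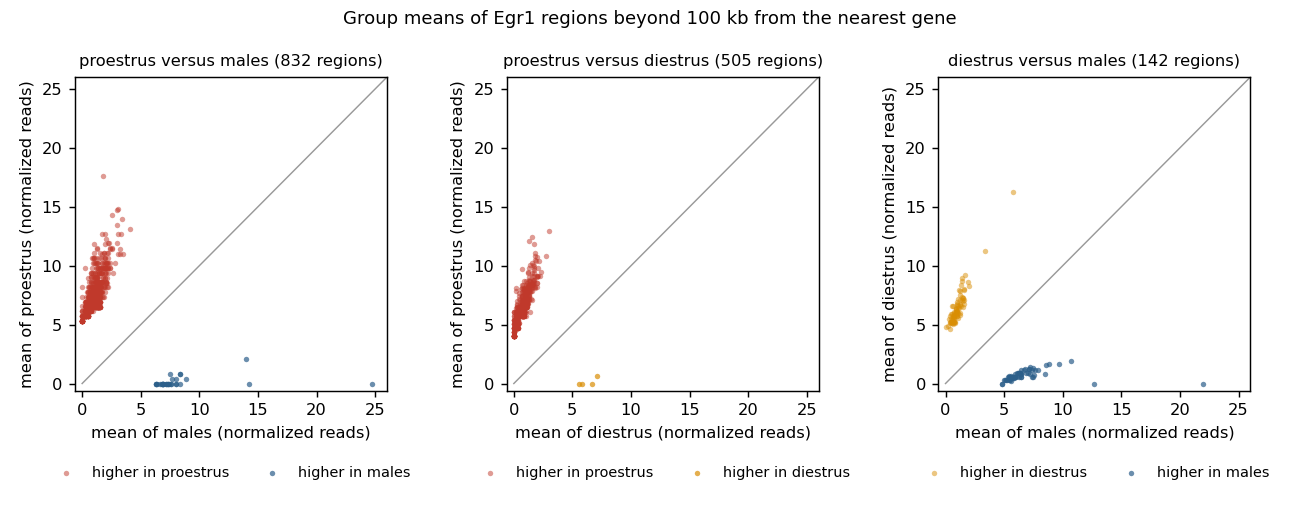
Group means of the gene-desert regions in each comparison, in normalized reads. Each point is a region, the horizontal axis is the mean of the second group, the vertical axis the mean of the first, and the gray line marks equal means. Above the line lie 800 of 832 points for proestrus versus males, 501 of 505 for proestrus against diestrus, and 81 of 142 for diestrus against males.

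Symbols were taken from a cut copy of the authors' gene list, ordered by identifier, which pairs 1238 identifiers with symbols. The named genes are thus an arbitrary slice by identifier, in which 21 gene-desert regions of proestrus versus males lay beside 18 genes. All 21 had the higher mean in proestrus, as did 96.2% of the gene-desert regions. Nearest to genes of transcriptional control, the region 228.8 kb upstream of Pou1f1, a POU-homeodomain factor of the pituitary, held 11.5 and 11.4 normalized reads in proestrus and 1.39, 1.83, and 0.63 in males (log2 ratio, 3.15). Here, the proestrus libraries differed by less than what 1 read is worth. Upstream of Runx1, a Runt-domain factor of blood cell formation, the region at 258.2 kb held 8.25 and 8.92 in proestrus and 2.78, 0.92, and 0.63 in males (log2 ratio, 2.58). The region 314.7 kb upstream of Sox9, a transcription factor of glial, cartilage, and testis development, held 8.25 and 6.49 in proestrus and 1.39, 0.92, and 0.63 in males (log2 ratio, 2.91). The groups did not overlap at any of the 3.

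Nrip1 encodes a corepressor of nuclear receptors, including the estrogen receptor, and had a pair of gene-desert regions upstream, 105.9 and 113.3 kb away. At the nearer, chr11:18503451-18503950, proestrus held 8.25 and 6.49 normalized reads and males 2.78, 0, and 1.27 (log2 ratio, 2.45). At the farther, chr11:18510851-18511350, proestrus held 4.95 and 8.11 and males 1.39, 0.92, and 1.27 (log2 ratio, 2.46). Each rested on 13 reads in proestrus and 4 in males, and the males varied more at the nearer region than at the farther.

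Among genes of cell adhesion, Ncam2, a neural cell adhesion molecule, also had a pair of regions. Downstream, at 180.3 kb, proestrus held 8.25 and 10.6 normalized reads and males 4.17, 1.83, and 0 (log2 ratio, 2.23). Upstream, at 282.1 kb, proestrus held 9.89 and 5.68 and males 1.39, 0.92, and 0 (log2 ratio, 3.34). For Cxadr, a junction protein known as a virus receptor, the region at 111.7 kb held 6.60 and 7.30 in proestrus and 0, 1.83, and 1.27 in males (log2 ratio, 2.75). At its other region, 239.2 kb away, proestrus held 4.95 and 6.49 and no male had a read, so that proestrus was at least 5.84-fold higher. The region 115.5 kb upstream of Itga6, an integrin subunit for laminin, held 6.60 and 8.92 in proestrus and 0, 1.83, and 1.27 in males (log2 ratio, 2.91). The highest male value at these regions, 4.17 beside Ncam2, remained below both proestrus values there.

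Single regions lay beside the other named genes. The secreted growth factor Bmp3, the ubiquitin ligase Cblb, the metalloreductase family member Steap1, the lipid carrier Pctp, the mitochondrial outer membrane protein Mtx2, the carbonic anhydrase related protein Ca10, the lysosomal enzyme Aga, and the glycosyltransferase-domain gene Glt1d1 had 1 each. Fam114a2, Frg1l1, and LOC289641 had 1 each as well. The highest log2 ratio among these was 4.40 at the region 482.7 kb upstream of Ca10, where proestrus held 6.60 and 6.49 normalized reads and males 0, 0.92, and 0. This value rests on 1 male read. Without that read a ratio could not be formed.

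**Figure D2:**
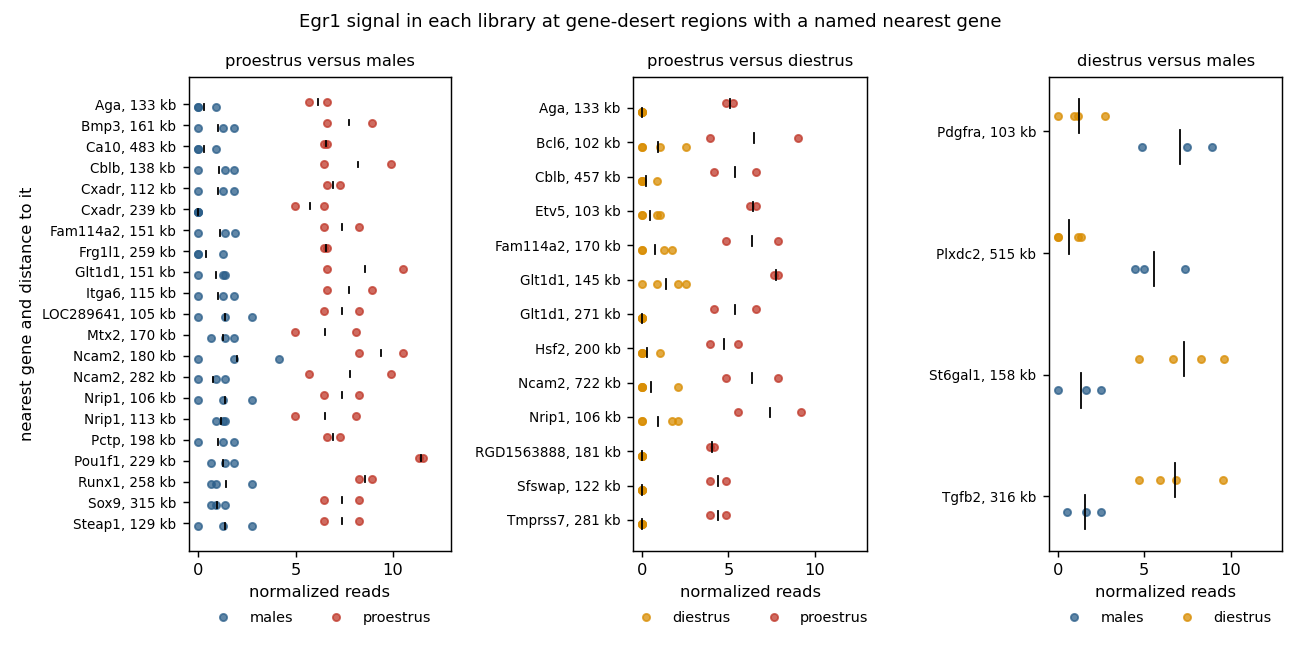
Normalized reads in each library at the gene-desert regions whose nearest gene has a symbol in the sources used, with the distance to that gene. Each point is a library and the black ticks are group means. In proestrus versus males and proestrus versus diestrus every proestrus point lies to the right of the points of the other group, whereas in diestrus versus males the regions beside St6gal1 and Tgfb2 are higher in diestrus and those beside Pdgfra and Plxdc2 are higher in males.

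In proestrus versus diestrus, gene-desert regions were again almost without exception higher in proestrus. A total of 501 of 505, or 99.2% (95% interval, 98.0 to 99.7), had the higher mean in proestrus, beside 98.2% of all listed regions on chromosomes 1 to 20. The groups did not overlap at 503, beside 99.7% of all listed regions on these chromosomes. The regions higher in proestrus had a median of 6.38 normalized reads in proestrus and 0.74 in diestrus, with a median log2 ratio of 3.10, compared to 3.05 over all listed regions higher in proestrus. At 55 gene-desert regions, no diestrus library had a read. With such regions set at the bound of 3 reads, both medians were 2.95. At the other extreme, the highest diestrus mean among the regions higher in proestrus was 2.99.

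That highest diestrus mean belonged to the region with most reads, chr6:46330951-46331850, 119.6 kb downstream of its nearest gene. Proestrus held 10.5 and 15.3 normalized reads there and diestrus 1.71, 5.04, 1.06, and 4.17 (log2 ratio, 2.11). The diestrus libraries fell into a low and a high pair, both below proestrus. The region at chr16:69227051-69227950 held 11.8 in both proestrus libraries, and 2.56, 0, 2.12, and 2.08 in diestrus. Its log2 ratio was 2.81, with means of 11.8 ± 0.0141 (SD, n = 2) and 1.69 ± 1.15 (SD, n = 4). At chr16:75914551-75915100, proestrus held 11.8 and 9.73 and diestrus 1.71, 5.04, 2.12, and 2.08 (log2 ratio, 1.98).

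The 4 gene-desert regions lower in proestrus lay on chromosomes 13, 3, 1, and 7. At chr13:98615951-98616450, diestrus held 5.97, 7.56, 8.47, and 6.25 normalized reads and proestrus 1.32 and 0 (log2 ratio, -3.42). The proestrus value rests on 1 read. At chr3:113501801-113502450, diestrus held 5.97, 3.78, 7.41, and 9.38 and proestrus none, which is at least 4.40-fold lower in proestrus. The regions chr1:129161351-129161850 and chr7:95830701-95831200 had no proestrus read either and were at least 3.87-fold and 3.67-fold lower. Both regions in which the groups overlapped had the higher mean in proestrus. At chr19:56117401-56117900, proestrus held 10.5 and 4.17 and diestrus 0, 0, 0, and 4.17, with the lower proestrus value equal to the highest diestrus value. At chr2:268581951-268582450, proestrus held 15.8 and 4.17 and diestrus 1.71, 5.04, 0, and 0, and the log2 ratio moved between 1.31 and 4.13 when single libraries were left out.

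Of the gene-desert regions of this comparison, 13 lay beside 12 named genes. All 13 had the higher mean in proestrus, as did 99.2% of the gene-desert regions. Beside Nrip1, the region at chr11:18503501-18504200, 105.9 kb upstream, held 9.21 and 5.56 normalized reads in proestrus and 1.71, 0, 0, and 2.08 in diestrus (log2 ratio, 2.96). Bcl6 and Etv5, which also regulate transcription, had regions just beyond the distance threshold. Upstream of Bcl6, a zinc finger repressor, the region at 102.0 kb held 3.95 and 9.04 in proestrus and 2.56, 0, 1.06, and 0 in diestrus (log2 ratio, 2.85). Upstream of Etv5, an ETS-family factor, the region at 103.1 kb held 6.58 and 6.26 in proestrus and 0.85, 0, 0, and 1.04 in diestrus (log2 ratio, 3.77). The proestrus libraries were close at Etv5 and apart at Bcl6.

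Farther from their genes, the region 722.0 kb downstream of Ncam2 held 7.89 and 4.87 normalized reads in proestrus and 0, 0, 0, and 2.08 in diestrus (log2 ratio, 3.62). The region 457.2 kb upstream of Cblb held 6.58 and 4.17 in proestrus and 0.85, 0, 0, and 0 in diestrus (log2 ratio, 4.68), and that 200.1 kb upstream of Hsf2, a heat shock factor, held 3.95 and 5.56 in proestrus and 0, 0, 1.06, and 0 in diestrus (log2 ratio, 4.19). Both ratios rest on 1 diestrus read. Diestrus had no read at the regions beside Aga, the splicing regulator Sfswap, the membrane protease Tmprss7, and RGD1563888, nor at the farther of the pair beside Glt1d1. The bounds there were at least 6.41-fold at Aga, 5.58-fold at Sfswap and at Tmprss7, 5.14-fold at RGD1563888, and 6.81-fold at Glt1d1. The nearer Glt1d1 region, at 145.0 kb, held 7.89 and 7.65 in proestrus and 0.85, 2.52, 0, and 2.08 in diestrus (log2 ratio, 2.51). At Fam114a2 the values were 7.89 and 4.87 in proestrus and 1.71, 1.26, 0, and 0 in diestrus (log2 ratio, 3.11).

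In diestrus versus males, gene-desert regions went in both directions. Of 142, 81 had the higher mean in diestrus and 61 the higher mean in males, so that 57.0% (95% interval, 48.8 to 64.9) were higher in diestrus. Over all listed regions on chromosomes 1 to 20, 37.9% were higher in diestrus. The groups did not overlap at any of the 142, beside 99.8% without overlap over all listed regions on these chromosomes. Among the gene-desert regions higher in diestrus, the median was 6.06 normalized reads in diestrus and 0.96 in males, with a median log2 ratio of 2.72. Among those lower in diestrus, the median was 0.64 in diestrus and 6.31 in males, with a median log2 ratio of -3.32. Over all listed regions these medians were 2.71 and -3.0. With groups without reads set at 3 reads, they were 2.72 and -3.13 for gene-desert regions.

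The region with most reads among those higher in diestrus was chr1:78499251-78499850, which also held the highest level in diestrus. Diestrus held 20.04, 16.5, 13.01, and 15.4 normalized reads and males 6.22, 3.27, and 7.81, with means of 16.2 ± 2.93 (SD, n = 4) and 5.77 ± 2.30 (SD, n = 3). The background behind the deposited enrichments was higher in diestrus as well, by 0.69 on the log2 scale, and the enrichments were 1.57 in diestrus and 0.90 in males. Its log2 ratio of 1.49 was the lowest among the gene-desert regions higher in diestrus, and the male mean the highest among them. A second region beside the same gene, chr1:78559451-78560050, held 6.68, 12.4, 5.91, and 11.8 in diestrus and 0, 1.63, and 3.35 in males (log2 ratio, 2.47). At the second region the background was higher in diestrus by 2.25 on the log2 scale, with enrichments of 1.88 and 1.62. The part of the background in these ratios was not tested. At chr8:91173551-91174250, diestrus held 10.5, 11.0, 13.01, and 10.6 and males 3.73, 4.08, and 2.23 (log2 ratio, 1.75), with a background log2 ratio of -0.25.

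Among the regions lower in diestrus, the pair on chromosome 14 described above had no read in any diestrus library. The male libraries held 21.2, 16.3, and 28.5 normalized reads at chr14:95355251-95356750 and 9.95, 16.3, and 11.7 at chr14:95354051-95354900, with male enrichments of 1.20 and 1.18 and no finite diestrus enrichment. At chr4:180614401-180615150, diestrus held 2.86, 1.37, 2.37, and 1.18 and males 11.2, 11.4, and 9.48 (log2 ratio, -2.46). All 3 males were more than 3 times as high as any diestrus library there.

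Only 4 of these regions had a named nearest gene, and they were split by direction. The region 158.3 kb upstream of St6gal1, a sialyltransferase of the Golgi, held 6.68, 9.61, 4.73, and 8.27 normalized reads in diestrus and 2.49, 1.63, and 0 in males (log2 ratio, 2.42). Downstream of Tgfb2, a ligand of the TGF-beta family, the region at 315.6 kb held 9.54, 6.87, 4.73, and 5.91 in diestrus and 2.49, 1.63, and 0.56 in males (log2 ratio, 2.12). In the opposite direction, the region 102.7 kb downstream of Pdgfra, the growth factor receptor that marks oligodendrocyte precursors, held 0.95, 2.75, 1.18, and 0 in diestrus and 7.47, 4.90, and 8.92 in males (log2 ratio, -2.54). The region 514.7 kb upstream of Plxdc2, a plexin-domain membrane protein, held 0, 1.37, 0, and 1.18 in diestrus and 4.98, 7.35, and 4.46 in males (log2 ratio, -3.13).

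The direction of listed regions changed with distance to the nearest gene in both comparisons with males. The share higher in proestrus than in males was 82.9% (95% interval, 78.8 to 86.3) inside or overlapping genes, 83.0% up to 10 kb away, 89.0% from 10 to 50 kb, and 90.2% from 50 to 100 kb. Among gene-desert regions it was 94.6% (91.5 to 96.6) from 100 to 200 kb, 96.6% (94.2 to 98.0) from 200 to 500 kb, and 98.6% (94.9 to 99.6) beyond 500 kb. For diestrus, the share above males was 26.2% (20.1 to 33.3) inside or overlapping genes and 33.0%, 33.1%, and 41.0% in the 3 bins up to 100 kb. It was 57.1% (44.9 to 68.6), 56.9% (44.1 to 68.8), and 57.1% (36.6 to 75.5) in the 3 bins of gene-desert regions, the last of which held 21 regions. The intervals of the 3 gene-desert bins overlapped one another in both comparisons, and no trend within them was tested. Between proestrus and diestrus, the share was 97.3% inside or overlapping genes and 100% beyond 500 kb, and little room was left for a gradient. No test of the difference between distance classes was made, since all regions were selected by their calls.

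**Figure D3:**
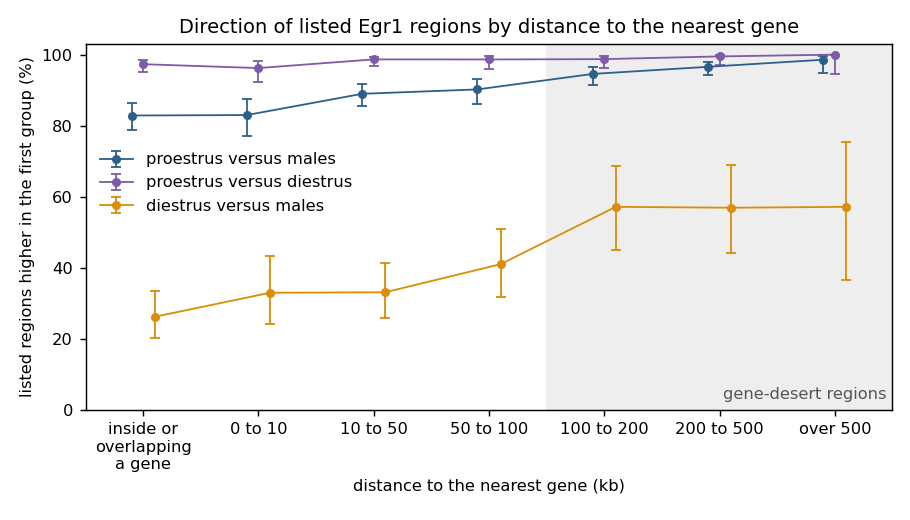
Percent of listed regions on chromosomes 1 to 20 with the higher mean in the first group of each comparison, by distance to the nearest gene in kb. Points are shares, bars are Wilson 95% intervals, and the gray area holds the gene-desert regions. The share climbs from 82.9% to 98.6% in proestrus versus males and from 26.2% to about 57% in diestrus versus males.

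The number of reads, the size of the change, and the background were set beside this pattern. The median log2 ratio of regions higher in the first group went from 2.84 inside or overlapping genes to 2.90 beyond 500 kb in proestrus versus males. In diestrus versus males the medians of the distance classes were between 2.56 and 2.75 up to 500 kb and 3.05 beyond it, where 12 regions were higher in diestrus. In contrast, the number of reads was tied to direction. Against males, all 644 gene-desert regions with fewer than 20 reads were higher in proestrus, as were all 1488 such regions over chromosomes 1 to 20, since no region lower in proestrus was listed with fewer than 22 reads. Such low-read regions made up 77.4% of the gene-desert regions, 69.1% of the regions outside genes within 100 kb, and 63.1% of those inside or overlapping genes. Within regions of 20 to 29 reads, the share higher in proestrus was 83.9% (95% interval, 77.6 to 88.7) of 168 gene-desert regions, 63.6% (57.1 to 69.7) of 220 regions outside genes within 100 kb, and 61.1% (51.9 to 69.6) of 113 inside or overlapping genes. At 30 reads or more it was 75% (53.1 to 88.8) of 20, 51.0% (37.5 to 64.4) of 49, and 24.1% (12.2 to 42.1) of 29. Between diestrus and males, the share higher in diestrus among regions of 20 to 29 reads was 60.2% (50.3 to 69.3) of 98 gene-desert regions, 37.9% (31.5 to 44.8) of 203, and 28.7% (20.8 to 38.2) of 101. At 30 reads or more it was 47.4% (32.5 to 62.7) of 38, 30.5% (22.9 to 39.3) of 118, and 20.3% (12.3 to 31.7) of 64, and the interval of the gene-desert regions spans an even split. The part of the number of reads in the pattern with distance was not tested.

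The background behind the deposited enrichments also differed between distance classes, though not in even steps. The median log2 ratio of the proestrus background to the male background was 0.04 inside or overlapping genes. It was -0.0083, 0.15, and 0.17 in the 3 bins up to 100 kb. From 100 to 200 kb it was 0.14, from 200 to 500 kb 0.28, and beyond 500 kb 0.26. For the diestrus background over that of males it was -0.20 inside or overlapping genes and between -0.30 and -0.045 in the bins up to 100 kb. In the 3 bins of gene-desert regions it was -0.0032, 0.21, and 0.14. For proestrus over diestrus it showed no rise, with -0.018 inside or overlapping genes and 0.052, -0.018, and -0.15 in the gene-desert bins. A background ratio exists only where both groups had reads, so that these medians rest on 769 of 832 gene-desert regions of proestrus versus males, including 7 of the 32 lower in proestrus, and on 136 of 142 of diestrus versus males. The part of these shifts in the direction of the calls was not tested. When the direction was taken from the enrichments in place of the reads, the shares of gene-desert regions stayed within their intervals.

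Gene-desert regions were unevenly spread over the chromosomes. In proestrus versus males they made up 39.9% of the listed regions on chromosomes 1 to 20. Chromosome 11 had the highest share, with 59 of 104 (56.7%), and chromosome 12 the lowest, with 3 of 32 (9.38%). Chromosome 2 held the most, 104 of 222. For proestrus versus diestrus the share over all was 30.5%, with the highest values on chromosome 19 (22 of 43, 51.2%) and chromosome 15 (33 of 69, 47.8%), and chromosome 11 was again above the share over all, with 23 of 51 (45.1%). For diestrus versus males it was 22.4%, chromosome 11 had 5 of 13, and none of the 12 listed regions on chromosome 12 was a gene-desert region. The share of each chromosome that lies beyond 100 kb from a gene was not measured here, and the differences between chromosomes were not tested against it. On every chromosome, proestrus was above males at the majority of gene-desert regions, beside 96.2% of those over all 20 chromosomes. Those lower in diestrus than in males were the majority on chromosomes 6 (3 of 5), 8 (3 of 5), 10 (6 of 11), 14 (4 of 6), 16 (6 of 9), 17 (5 of 8), and 19 (5 of 7). These counts are small. Over chromosomes 1 to 20, 57.0% of gene-desert regions and 37.9% of all listed regions were higher in diestrus.

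**Figure D4:**
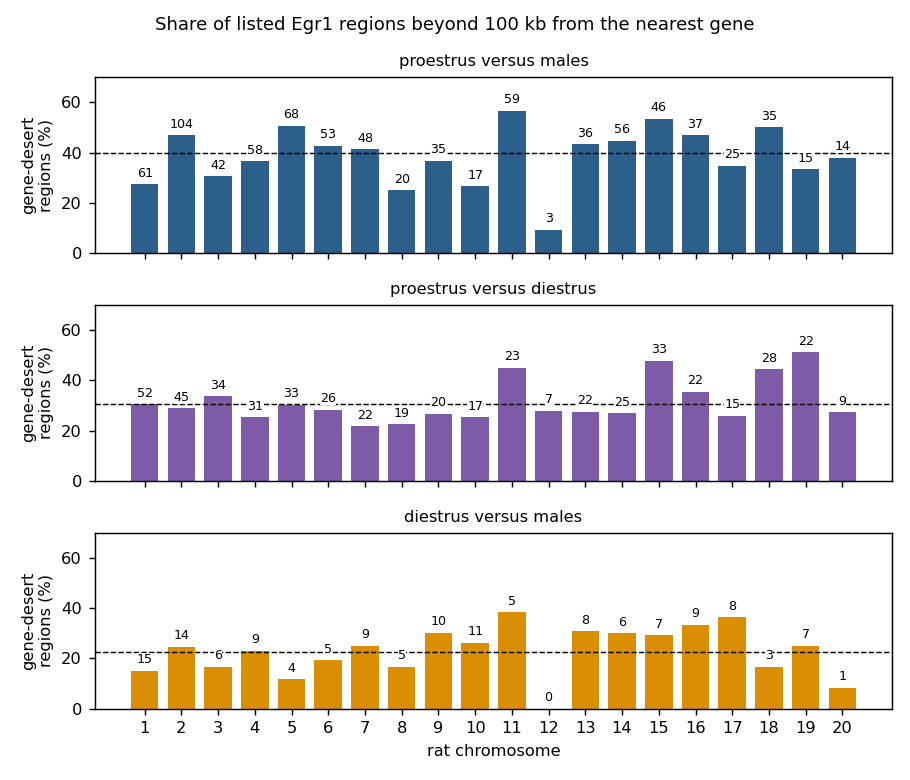
Gene-desert regions as a percent of the listed Egr1 regions of each chromosome, for chromosomes 1 to 20 and each comparison. Numbers above the bars are gene-desert regions, and dashed lines are the share over all 20 chromosomes (39.9%, 30.5%, and 22.4%). Chromosome 11 stands above the line in all 3 panels and chromosome 12 is low in both comparisons with males.

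Gene-desert regions were at a median of 255684 bp from the nearest gene for proestrus versus males, 213412 bp for proestrus versus diestrus, and 216160 bp for diestrus versus males. Beyond 500 kb lay 140, 68, and 21 regions. The genes beside gene-desert regions had median lengths of 1686, 2243, and 2116 bp. For listed regions outside genes within 100 kb the medians were 3912, 9767, and 7362 bp, and for genes holding or overlapping listed regions 103463, 96808, and 74258 bp. A gene under 500 bp was the nearest to 24.0%, 25.7%, and 23.9% of gene-desert regions, and to 19.5%, 18.3%, and 16.0% of the listed regions outside genes within 100 kb. A long gene can hold more regions than a short one, and the lengths were not corrected for this. Gene-desert regions lay upstream of the nearest gene in 57.5%, 59.4%, and 54.2% of cases. For regions outside genes within 100 kb the shares were 59.2%, 61.4%, and 63.6%, so that the gap was widest in diestrus versus males. The median width was 500 bp in every comparison.

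The farthest regions of proestrus versus males lay on chromosomes 18 and 14. At chr18:9675401-9675900, 1463 kb from the nearest gene, proestrus held 8.25 and 5.68 normalized reads and males 1.39, 0.92, and 0 (log2 ratio, 3.18). Those at chr18:20452001-20452700 and chr14:57652851-57653350, at 1427 and 1357 kb, had log2 ratios of 2.93 and 2.43. Of those listed for proestrus and diestrus, the region at chr13:24175001-24175500, 1450 kb away, held 6.58 and 5.56 in proestrus and 0.85, 1.26, 1.06, and 0 in diestrus (log2 ratio, 2.94). The next ones, on chromosome 19 at 1201 kb and chromosome 5 at 1193 kb, were also higher in proestrus, and the former had no diestrus read. The farthest region of diestrus versus males was chr1:133391501-133392000 at 897.8 kb. Diestrus held 6.68, 6.87, 5.91, and 5.91 there and males 0, 1.63, and 1.12 (log2 ratio, 2.79). The next, at chr2:273104601-273105200 and 856.5 kb, went the other way, with 0.95, 1.37, 1.18, and 1.18 in diestrus and 7.47, 7.35, and 8.92 in males (log2 ratio, -2.76), with a background log2 ratio of -1.36. The libraries of each group were close to each other at both.

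At the threshold itself, the nearest gene-desert regions of proestrus versus males were 100298 and 100476 bp from their genes. The first was higher in proestrus by 3.08 on the log2 scale, and the second had no read in proestrus. The regions just short of the threshold, at 99572 and 99342 bp, were likewise split, with a log2 ratio of 3.55 and with no proestrus read. For proestrus and diestrus, the regions at 100379 and 100781 bp had a log2 ratio of 3.19 and no proestrus read, and those at 99965 and 99883 bp had log2 ratios of 2.33 and 2.96. The log2 ratios of diestrus over males were -2.71 and -2.94 just beyond the threshold, at 100353 and 100665 bp, and -3.32 and 2.37 just short of it, at 99770 and 98998 bp.

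Some gene-desert regions lay in groups. When those within 100 kb of each other were joined, proestrus versus males had 87 groups of 2 or more regions with 190 regions (22.8%), proestrus versus diestrus had 32 groups with 66 regions (13.1%), and diestrus versus males had 5 groups with 10 regions (7.04%). The numbers of groups were not adjusted for the number of regions listed. All but 1 of the groups of proestrus versus males went in a single direction, higher or lower. Because 96.2% of the gene-desert regions were higher in proestrus and 72 of the groups were pairs, this says little about neighboring regions. The largest group, chr17:74702301-74937850, held 4 regions over 235.6 kb, with means between 6.95 and 11.9 normalized reads in proestrus and between 1.44 and 2.23 in males. Log2 ratios were between 2.27 and 2.49, and all 4 were between 430.0 and 573.6 kb from the nearest gene. On chromosome 11, 3 regions within 18.8 kb, at chr11:22342301-22361100, had log2 ratios from 2.08 to 4.40, and on chromosome 9, 3 regions within 29.95 kb had log2 ratios from 2.50 to 3.33.

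In proestrus versus diestrus, the groups of 3 were at chr19:1691851-1764150, with log2 ratios from 3.06 to 4.50, and at chr7:103790501-103898550, with log2 ratios from 2.96 to 4.37. All these regions were higher in proestrus, as were 99.2% of the gene-desert regions of this comparison. A group of diestrus versus males on chromosome 17 within 10.05 kb was mixed, with 1 region higher in diestrus by 2.25 on the log2 scale and 1 lower, with a log2 ratio of -4.11. Any gene had at most 5 gene-desert regions beside it for proestrus versus males, 4 for proestrus against diestrus, and 2 for diestrus against males. A gene of 102 bp on chromosome 17 was the nearest to 5 regions of proestrus versus males, between 191.9 and 573.6 kb away, and to 4 of proestrus versus diestrus, between 188.0 and 625.4 kb away. It has no symbol in the sources used here.

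At some positions a gene-desert region was listed in 2 comparisons. The comparisons share a group of libraries, so that such regions do not count as independent observations, and their values are given side by side. The region at chr6:46331001-46331500 had 9.89 and 12.2 normalized reads in proestrus and 4.17, 1.83, and 3.17 in males, a log2 ratio of 1.85, beside the 2.11 of proestrus versus diestrus given above. The background was lower in proestrus in both, with log2 ratios of -2.10 and -1.68. On chromosome 16, at chr16:75914601-75915100, proestrus held 14.8 and 10.6 and males 5.56, 1.83, and 2.54 (log2 ratio, 1.94), beside 1.98 against diestrus. At chr5:31452501-31453100, proestrus held 14.5 and 6.95 and diestrus 2.56, 1.26, 1.06, and 3.13 (log2 ratio, 2.42), beside 3.29 against males. In proestrus, 1 library was about 2 times the other there in both tables.

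On chromosome 7, at chr7:50918701-50919400, the log2 ratio was 2.28 against males, and at chr7:50918851-50919350 it was 2.40 against diestrus. At the latter the background was higher in proestrus by 1.53 on the log2 scale, with enrichments of 4.01 and 2.20, whereas against males it was lower in proestrus, with a log2 ratio of -0.90 and enrichments of 4.16 and 0.46. On chromosome 15, at chr15:92313101-92314050, proestrus held 14.8 and 13.8 normalized reads and males 4.17, 2.75, and 0.63 (log2 ratio, 2.51). In its counterpart against diestrus, chr15:92313201-92313700, proestrus held 6.58 and 9.04 and diestrus 1.71, 0, 0, and 4.17 (log2 ratio, 2.41), with a background log2 ratio of 1.21 here and of -0.61 against males. Aga and the nearer region of Nrip1 belonged to this kind as well, with log2 ratios against males of 4.31 and 2.45. The 2 tables were normalized separately, and levels should not be compared across them.

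Other positions were listed in both comparisons with males, which share the male libraries. At chr8:87700001-87700650, proestrus held 6.60 and 7.30 normalized reads and males 1.39, 0.92, and 0 (log2 ratio, 3.17). In the overlapping region of diestrus versus males, diestrus held 4.77, 4.12, 5.91, and 7.09 and males 0, 0.82, and 0.56 (log2 ratio, 3.57). The background there was also higher in diestrus, by 2.04 on the log2 scale, and the enrichments were 1.85 in diestrus and 0.64 in males. At chr3:47654101-47654600, the log2 ratio was 2.99 for proestrus and 2.91 for diestrus. At chr2:139393001-139393500, no proestrus library had a read, diestrus held 0.95, 1.37, 1.18, and 0, and males held 6.22, 7.35, and 5.58 in the table with diestrus (log2 ratio, -2.86). Proestrus was at least 3.89-fold lower than males there.

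Diestrus was the low group of both its comparisons at 3 positions. At chr1:146237901-146238600, proestrus held 7.89 and 7.65 normalized reads and diestrus 0.85, 1.26, 1.06, and 1.04 (log2 ratio, 2.89). In the overlapping region of diestrus versus males, diestrus held 0.95, 1.37, 0, and 0 and males 8.71, 4.90, and 5.58 (log2 ratio, -3.46), with a background log2 ratio of -1.12. On chromosome 14, at chr14:29566351-29566850, the log2 ratio was 2.86 for proestrus over diestrus, and at chr14:29566551-29567050 it was -3.89 for diestrus over males. At chr16:79863101-79863600, proestrus held 6.58 and 4.17, males held 4.98, 6.53, and 5.02, and 3 of 4 diestrus libraries had no read. The log2 ratios were 4.37 for proestrus over diestrus and -4.20 for diestrus over males, each with 1 diestrus read. Because the same diestrus libraries enter both tables, their low values are seen once and not repeatedly.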

How the data were processed

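Egr1 ChIP-seq of the rat mPFC was analysed in males (n = 3), proestrus females (n = 2), and diestrus females (n = 4), grouped by the sample labels. The authors trimmed reads with Trimmomatic 0.32, mapped them to Rnor_5.0 with Bowtie2 2.1.0, kept uniquely mapping reads, removed duplicates and outlier libraries, compared groups in pairs with DiffReps, and annotated regions with ChIPpeakAnno. SAMtools 0.1.19 and Picard 1.84 are also named in the submitters' processing notes. The sources used here do not give the window, test, cut-off, normalization, or background of DiffReps. The authors' deposited group means and library lists are a signal, in normalized reads, and their enrichment is the ratio of a group's mean to that group's background. The tables also hold the authors' log2 fold changes, p-values, and adjusted p-values, which were not used. The library lists carry no sample names, and tables were normalized separately.

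Regions on chromosomes 1 to 20, annotated as upstream or downstream and with a shortest distance above 100000 bp, were selected, and log2 ratios were computed from the group means. The members, the lists, and the rule for named regions were chosen with earlier results of these data known. The rule named, per comparison, the 3 regions with most reads per direction, the 3 farthest, those next to the threshold, the 3 genes with most regions, the 3 largest groups within 100 kb, the 5 regions with most reads that overlapped by at least 1 bp with another comparison, and up to 10 regions by reads whose nearest gene has a symbol. Further regions with a symbol, and those whose groups overlapped, were named after their values were seen. Symbols were found for 28 of 934 nearest genes in the part of the authors' gene table used, which was cut by identifier, and the planned counts by gene family were not run, since 80% was required. No sequence is printed, because no Rnor_5.0 sequence was used here.

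Low values of each list gave the worth of a read in that library. Where a group had no read, folds were bounded with 3 reads over the group. The recovery of reads and the direction of changed regions were tested on simulated data, whereas the bound was not. No test was made on the regions, which had all been called by the authors. Alternatives were distances above 50, 200, and 500 kb, joining within 1 and 10 kb, chromosome X and unplaced sequences included, at least 20 reads, 0.5 normalized reads added, the enrichment in place of the means, and each library left out. Python 3.11.15, numpy 2.4.6, pandas 2.3.3, and matplotlib 3.10.9 were used.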

Additional observations from a re-analysis of the deposited data

Results flagged for a closer look

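Of 50 sets of diestrus values examined at the named regions, each of 4 libraries, 8 had a library standing apart from the other diestrus libraries by Dixon's ratio at its 95% critical value. Chance flags about 1 in 20 such groups, and in counts as low as these a single read can stand apart from libraries at 0. In proestrus versus diestrus, 1 diestrus library held 5.04 normalized reads at chr16:75914551-75915100, beside 2.12 in the next. At chr19:56117401-56117900, 1 library held 4.17 and the others none, and this was a region in which the groups overlapped. The remaining ones each had 1 library above 0, with 2.08 near Ncam2, 0.85 near Cblb, 1.06 near Hsf2, and 1.04 at chr16:79863101-79863600. In diestrus versus males, the values were 1.18 at chr16:79863101-79863600 and 1.37 at chr14:29566551-29567050.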

How the results depend on the processing

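Of 126 alternative values, 92 stayed the same within counting error or 1.5 times, 34 moved, and none reversed. With distances above 200 kb, 519, 267, and 79 regions were left in proestrus versus males, proestrus versus diestrus, and diestrus versus males, and above 500 kb 140, 68, and 21. With chromosome X and unplaced sequences included, there were 1215, 538, and 160. The shares higher in proestrus were 98.6% and 100% above 500 kb in the first and second comparison. The median log2 ratios in this section are over regions of both directions, unlike those of a single direction given above. In the main setting they were 2.87, 3.09, and 2.29 in the 3 comparisons. In diestrus versus males, 242 regions lay above 50 kb, of which 50.4% were higher in diestrus, with a median log2 ratio of 1.28, and above 500 kb the median was 2.46. With at least 20 reads, 188 regions (83.0% higher in proestrus, median log2 ratio 2.37) and 132 regions (97.0%, 2.63) were left in the comparisons of proestrus with males and with diestrus, and the reads that a call in each direction needs are built into this. Taken from the enrichments, the medians were 2.67, 3.43, and 1.78, and with 0.5 normalized reads added 2.40, 2.48, and 1.92. When each library was left out, the medians lay between 2.59 and 3.08, 3.05 and 3.41, and 1.81 and 2.30, and the share without overlap in proestrus versus diestrus between 99.6% and 100%. Where the groups do not overlap, leaving out a library cannot change a direction or make an overlap, so that these shares say nothing about stability. In diestrus versus males the ratios form a positive and a negative group of similar size, and the median depends on their proportion. In the main setting it was 2.29 and lay among the positive ratios, which started at 1.49. Leaving out the regions that overlap another listed gene, chosen after seeing the data, gave 96.5%, 99.6%, and 58.8% higher in the first group. The cause of these shifts was not tested. No paired analysis was possible because the library lists carry no sample names. Most regions rest on fewer than 30 reads, and a level of 1 or 2 normalized reads in the lower group cannot be told from a few stray reads.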
